A study of Mus musculus with 6 samples.

Results

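Glycolysis in the adipocyte fraction of mouse fat was followed through 10 enzymes: the hexokinases Hk1 and Hk2, the isomerase Gpi1, the phosphofructokinases Pfkl and Pfkp, the aldolase Aldoa, the kinase Pgk1, the enolase Eno1, the pyruvate kinase Pkm and the lactate dehydrogenase Ldha. They were taken by gene symbol, irrespective of their values, and are 10 of the 35122 genes in the count table. The symbols match 11 entries of the table, because a second Aldoa gene model (ENSMUSG00000114515, just upstream of the main one) carries the same name. That model had between 1 and 9 counts per library and was not tested, whereas all 10 enzymes passed the filter on low counts.

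RNA was sequenced from the floating adipocyte layer of collagenase-digested epididymal fat of 3 control mice and 3 adipocyte PU.1 knockout (aPU.1KO) mice, 1 library per mouse. All 6 were chow-fed C57BL/6 males, aged 10 to 11 months by the labels, although the paper describes the sequenced mice as older. Control mice were PU.1 fl/fl, and aPU.1KO mice were AdipoqCre PU.1 fl/fl. Both groups therefore carried the floxed allele of Spi1, the gene of the transcription factor PU.1, and only the knockouts carried Cre, which the adiponectin promoter drives in adipocytes. Presence of Cre and loss of PU.1 cannot be told apart in this design. The p-values below measure the spread between these mice.

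Glycolysis splits glucose into pyruvate and yields ATP and NADH on the way. Hexokinase traps glucose in the cell as glucose 6-phosphate, phosphofructokinase commits the sugar to breakdown, and lactate dehydrogenase turns pyruvate into lactate. In adipocytes the same route supplies glycerol 3-phosphate for triglyceride synthesis, pyruvate for the mitochondria and, after insulin, a large flow of lactate. Several steps have isozymes that differ between cell types: Hk2 is the insulin-responsive hexokinase of fat and muscle, Hk1 is found in most cells, and Hk3 is a hexokinase of myeloid cells.

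Library totals were 20550252 to 69283842 counts, the largest being control mouse 1. The 12 adipocyte markers were all detected and summed to 43706 to 66535 CPM (read counts scaled to a common library size), so the labelled cell type was present in every library, but the layer was not pure. Spi1, counted over the whole gene, stood at 24.3, 6.35 and 26.7 CPM in the control mice and 3.20, 1.22 and 4.17 CPM in the aPU.1KO mice. The 15 macrophage markers, of which none was at 0 in every library, summed to 2202, 574 and 2136 CPM in the controls and 395, 240 and 375 CPM in the knockouts, and 14 of the 15 passed an unadjusted p of 0.05, all downwards. Control mouse 2 thus stood apart from the other control mice. In such bulk samples, fewer cells of a type and less RNA per cell cannot be told apart.

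The sum of the 10 enzymes depended on the scale on which it was taken. Their counts made up 0.438%, 0.409% and 0.455% of the control libraries and 0.475%, 0.461% and 0.437% of the aPU.1KO libraries, and these ranges overlapped. In CPM, which scale the libraries by TMM factors, they summed to 4177, 4081 and 4225 in the control mice and 4962, 5067 and 4329 in the aPU.1KO mice, and these did not overlap. Aldoa and Ldha, the most abundant, weigh most in such a sum. The median log2 fold change (aPU.1KO over control) of the 10 was 0.10, against 0.01 for all 13925 genes tested, with 7 enzymes above 0 and 3 below. No enzyme passed an adjusted p of 0.05 in edgeR's quasi-likelihood test, where 0.237% of all genes did. At an unadjusted p under 0.05, 3 of the 10 were called, Hk2 and Ldha higher and Hk1 lower, beside 25.7% of all genes (11.9% higher and 13.7% lower). DESeq2 called 1 of the 10, Hk1, in the downward direction, beside 12.4% of all genes (3.97% higher and 8.46% lower), and limma-voom called 0. In CPM, groups did not overlap for 4 of the 10, beside 32.1% of all genes (16.7% higher and 15.5% lower). Aldoa, Eno1 and Ldha were higher and Hk1 was lower in the aPU.1KO mice. The TMM factors were 1.05, 1.00 and 1.08 in the control and 0.958, 0.911 and 1.01 in the aPU.1KO libraries. Taken as shares of the library totals, without these factors, Aldoa, Eno1 and Ldha overlapped between the groups and Hk1 did not. The members' shares were thus near those of all genes at the looser thresholds, and the values below are read gene by gene.

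**Figure D1:**
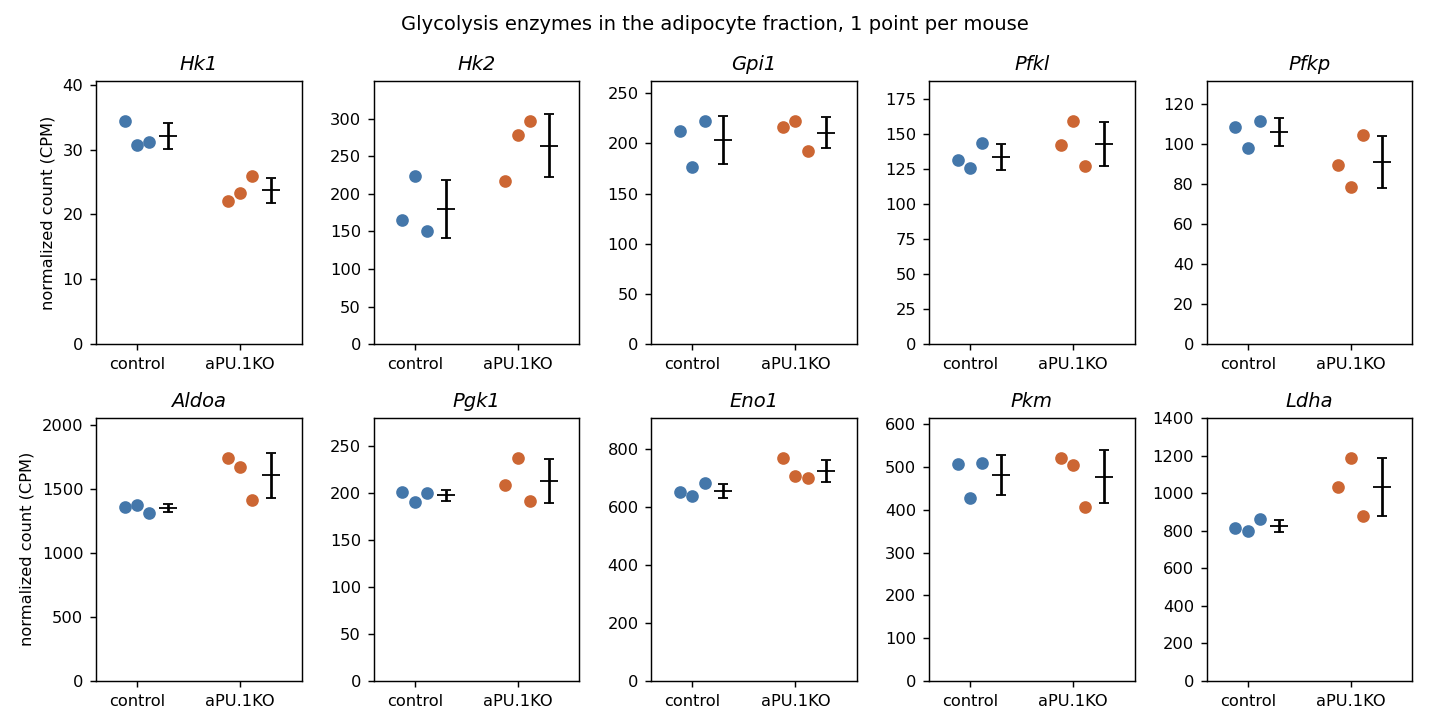
Each panel plots the level (CPM) of 1 of the 10 glycolysis enzymes in each of the 3 control and 3 aPU.1KO mice, with points for mice and bars for the group mean ± SD (n = 3). Hk1 lies lower in every aPU.1KO mouse (22.0 to 25.9 CPM) than in any control mouse (30.7 to 34.4 CPM), whereas Hk2 overlaps through control mouse 2.

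The first step of the pathway held the largest differences in both directions. The promoters of the hexokinase genes Hk1, Hk2 and Hk3 are printed here, because their fold changes were the farthest apart at this step and PU.1 is the factor removed in these mice. Each window spans 300 bases around an annotated start, mostly upstream of it and on the gene's own strand, from RefSeq on GRCm38.p6. Capitals mark GAGGAAG, a purine-rich PU.1 motif, and ACGTG and GCGTG, the core of the hypoxia response element, on either strand. The windows are Hk1 window 1 at chr10:62379859-62380158, Hk1 window 2 at chr10:62340372-62340671, Hk2 at chr6:82774405-82774704 and Hk3 at chr13:55021336-55021635, all on the minus strand.
Hk1 window 1: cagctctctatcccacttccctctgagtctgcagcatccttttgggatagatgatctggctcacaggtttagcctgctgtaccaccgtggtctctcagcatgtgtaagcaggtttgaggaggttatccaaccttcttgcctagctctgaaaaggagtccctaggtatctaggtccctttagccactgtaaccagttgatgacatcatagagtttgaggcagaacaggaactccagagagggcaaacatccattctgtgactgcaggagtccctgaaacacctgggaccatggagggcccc
Hk1 window 2: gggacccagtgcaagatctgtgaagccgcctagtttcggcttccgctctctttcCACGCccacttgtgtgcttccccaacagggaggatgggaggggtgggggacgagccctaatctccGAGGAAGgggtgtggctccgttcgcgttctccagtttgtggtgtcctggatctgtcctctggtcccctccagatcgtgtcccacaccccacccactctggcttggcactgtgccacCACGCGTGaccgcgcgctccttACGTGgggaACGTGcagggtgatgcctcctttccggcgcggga
Hk2: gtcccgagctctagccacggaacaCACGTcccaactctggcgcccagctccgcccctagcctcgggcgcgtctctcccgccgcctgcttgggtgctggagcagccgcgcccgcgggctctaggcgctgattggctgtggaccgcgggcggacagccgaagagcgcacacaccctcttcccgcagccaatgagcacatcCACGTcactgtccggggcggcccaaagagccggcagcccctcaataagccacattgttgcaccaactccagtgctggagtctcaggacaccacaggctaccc
Hk3: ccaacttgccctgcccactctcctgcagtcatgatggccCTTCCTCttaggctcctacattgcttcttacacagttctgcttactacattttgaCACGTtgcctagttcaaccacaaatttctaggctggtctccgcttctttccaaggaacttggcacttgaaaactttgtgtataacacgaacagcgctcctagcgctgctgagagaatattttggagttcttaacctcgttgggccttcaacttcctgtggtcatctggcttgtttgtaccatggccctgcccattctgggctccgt
Hk1 window 1, at the outermost start of the gene, held none of these motifs. Hk1 window 2, at a start inside the gene, held all 3, and Hk2 held ACGTG alone, at 2 places. The Hk3 window held the PU.1 motif once and the ACGTG core once. GAGGAAG was found in 13.6% of all 32851 promoter windows and in 2 of the 17 windows of the 10 enzymes, 1 of Aldoa and 1 of Hk1. ACGTG was found in 19.6% of all windows and in 7 of the 17, belonging to Aldoa, Hk1, Hk2, Ldha, Pgk1 and Pkm, and GCGTG in 32.4% of all and 8 of the 17. A match of letters is a description of the window and not a binding site.

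Hk2 (chr6:82725025-82774454), which phosphorylates glucose at the mitochondrial surface of insulin-responsive cells, read 165, 223 and 150.2 CPM in the control mice. It read 217, 278 and 297 CPM in the aPU.1KO mice. Control mouse 2 was above aPU.1KO mouse 1, so the groups overlapped. The log2 fold change was 0.56 (SE 0.18, 95% interval 0.12 to 0.99; edgeR adjusted p = 0.125). Without control mouse 2 the log2 fold change was 0.73 and the edgeR adjusted p 0.0415. That fit called 1193 of 14306 genes, against 33 in the main fit. Over the other alternatives, apart from the covariate described below, the adjusted p lay between 0.058 and 0.418.

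Hk1 (chr10:62268855-62379908), the general hexokinase, went the other way. It read 34.4, 30.7 and 31.1 CPM in the control mice and 22.0, 23.2 and 25.9 CPM in the aPU.1KO mice. All 3 knockouts were below all 3 controls. The log2 fold change was -0.44 (SE 0.10, 95% interval -0.67 to -0.21; edgeR adjusted p = 0.0783), and it stayed between -0.50 and -0.40 when any 1 mouse was left out. DESeq2 gave an adjusted p of 0.00636, and the alternatives, the covariate aside, ranged from there to 0.3375 without control mouse 1. The antisense gene Hk1os shares 157 exon bases with Hk1 and was not among the genes of the table, and the strand setting of the counting was not given in the sources used here.

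Hk3, which was not chosen for the set, is needed to read the hexokinase total. It read 27.9, 4.20 and 28.9 CPM in the control mice and 2.44, 0.588 and 3.79 CPM in the aPU.1KO mice. The groups did not overlap, and control mouse 2, which had the lowest macrophage markers of the controls, was also lowest here. The log2 fold change was -3.17 (SE 0.86; edgeR adjusted p = 0.0954; DESeq2 adjusted p = 0.0208; range over alternatives, covariate aside, 0.0181 without control mouse 2 to 0.345). Hkdc1, another gene of the family, was too low to test. Adpgk, which phosphorylates glucose with ADP instead of ATP, read 31.9 to 34.4 CPM in the control and 28.7 to 33.3 CPM in the aPU.1KO mice and stood at -0.09 (95% interval -0.30 to 0.12; edgeR adjusted p = 0.551).

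The make-up of hexokinase mRNA was compared as a share, because a share within a library does not depend on its scaling. Counts were divided by the exon length of each gene. Hk2 made up 70.4%, 88.8% and 68.6% of the Hk1, Hk2 and Hk3 total in the control mice and 91.8%, 94.2% and 92.4% in the aPU.1KO mice. Every knockout was above every control. The means were 75.9% ± 11.1 and 92.8% ± 1.23 (SD, n = 3 each), a difference of 16.9 percentage points (exact two-sided permutation p = 0.1, the smallest that 3 against 3 can give, and 0.25 after Benjamini-Hochberg adjustment over 5 families). The difference was 13.2 to 23.3 points when 1 mouse was left out. Most of the shift was Hk3, which went from 14.5% ± 10.3 to 1.30% ± 0.859, while Hk1 went from 9.58% ± 0.925 to 5.89% ± 0.553. Control mouse 2, with an Hk3 share of 2.71%, had a hexokinase make-up closer to the knockouts than to the other controls. Between the enzymes of the set alone, there were 4.79, 7.28 and 4.83 Hk2 counts per Hk1 count in the control mice and 9.85, 12.0 and 11.5 in the aPU.1KO mice, a ratio chosen after the values were seen and given without a test.

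**Figure D2:**
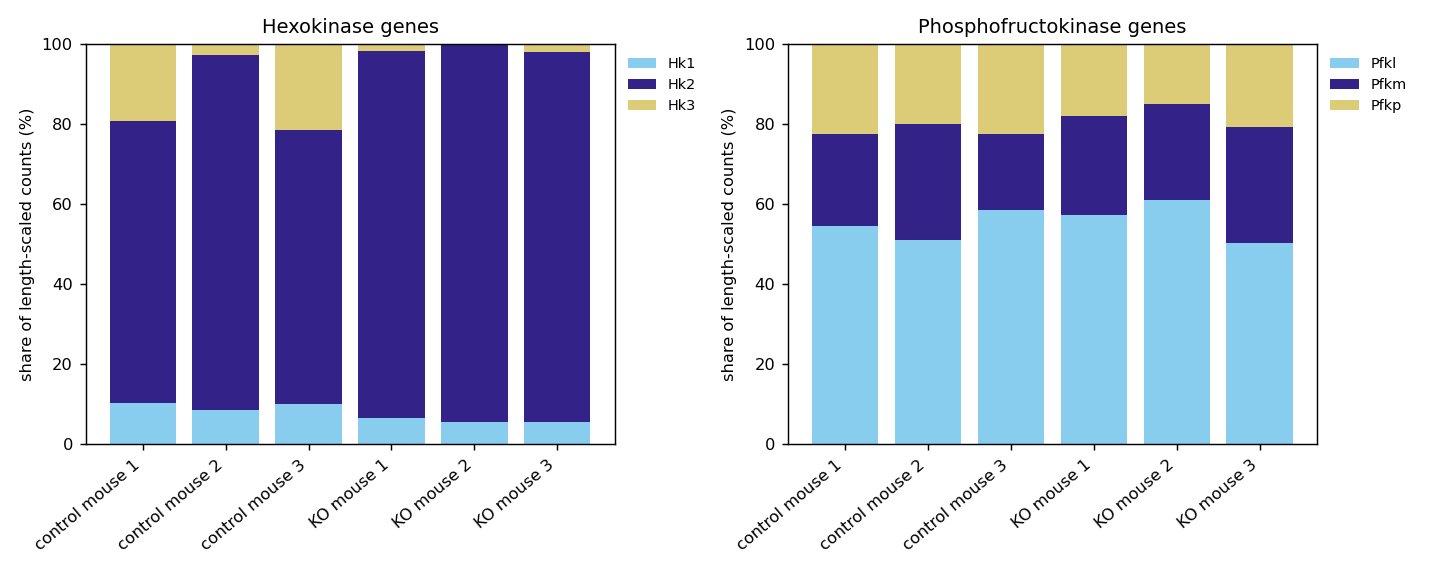
Stacked bars give, for each mouse, the percent of length-scaled hexokinase counts from Hk1, Hk2 and Hk3 (left) and of phosphofructokinase counts from Pfkl, Pfkm and Pfkp (right). Hk2 fills 91.8% to 94.2% of the hexokinase bar in the aPU.1KO mice and 68.6% to 88.8% in the control mice, whereas the phosphofructokinase bars overlap between the groups.

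Macrophage markers differed between the same mice, and their values stand here beside those of the hexokinases. The macrophage score, a mean of log2 CPM over the 15 markers, was 6.50, 4.77 and 6.29 in the control mice and 4.12, 3.50 and 4.13 in the aPU.1KO mice. When this score was added to the edgeR fit as a covariate, the log2 fold change was 0.03 (SE 0.26) for Hk2, -0.31 (SE 0.19) for Hk1 and 0.63 (SE 0.63) for Hk3. Every aPU.1KO mouse scored below every control mouse, and 0 of the 10 enzymes passed an adjusted or an unadjusted p of 0.05 in this edgeR fit, in which 435 genes passed the unadjusted threshold and 0 the adjusted one. Markers of fat progenitors were below 0 in 11 of 11 genes, with a median log2 fold change of -0.84 and sums of 1830.4 to 2341 CPM in the control against 1005 to 1508 CPM in the aPU.1KO mice. Endothelial markers were below 0 in 9 of 9 genes (median -0.47) and mesothelial markers in 7 of 8 (-0.45). Hepatocyte markers were below 0 in 8 of 8 (-3.61), while red blood cell markers were above 0 in 6 of 6 tested (0.25). The part of these other cell types in the hexokinase differences was not otherwise tested.

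**Figure D3:**
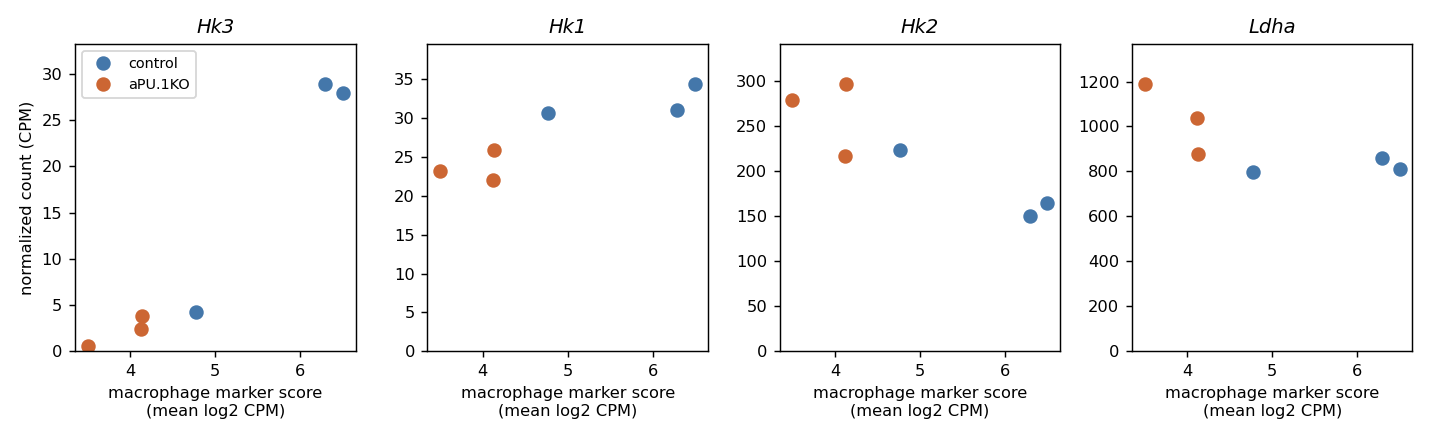
Levels (CPM) of Hk3, Hk1, Hk2 and Ldha are plotted against the macrophage score (mean log2 CPM of 15 markers), 1 point per mouse, coloured by genotype. Control mouse 2, at a score of 4.77, lies between the aPU.1KO mice (3.50 to 4.13) and the other controls (6.29 and 6.50).

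Gpi1, which turns glucose 6-phosphate into fructose 6-phosphate, overlapped between the groups, at 177 to 222 CPM in the control and 193 to 222 CPM in the aPU.1KO mice (log2 fold change 0.05, 95% interval -0.22 to 0.31). The next enzyme, phosphofructokinase, is the main point of control in the pathway and is built from liver-type (Pfkl), platelet-type (Pfkp) and muscle-type (Pfkm) subunits. Pfkl, the most abundant of them per length, read 125 to 144 CPM in the control and 127 to 159 CPM in the aPU.1KO mice (0.10, interval -0.15 to 0.35). Pfkp (chr13:6579768-6648777) read 108, 98.1 and 112 CPM in the control mice and 89.8, 78.8 and 105 CPM in the aPU.1KO mice. Knockout mouse 3 lay within the control range, so the groups overlapped. Its log2 fold change was -0.22 (interval -0.50 to 0.06; edgeR adjusted p = 0.285), and it was 0.06 with the macrophage score as a covariate. Pfkp shares 748 exon bases with Pitrm1 on the opposite strand, a mitochondrial peptidase gene that read 59.4 to 65.0 CPM in the control and 71.6 to 77.9 CPM in the aPU.1KO mice, so reads in the shared part cannot be assigned without strand. Pfkl supplied 54.7% ± 3.66 of the length-scaled phosphofructokinase counts in the control and 56.2% ± 5.35 in the aPU.1KO mice (SD, n = 3 each; exact permutation p = 0.8).

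Aldoa (chr7:126795234-126800751) splits fructose 1,6-bisphosphate into the pair of triose phosphates and was the most abundant of the 10. It read 1356, 1374 and 1314 CPM in the control mice and 1741, 1671 and 1408 CPM in the aPU.1KO mice. In CPM, all knockouts were above all controls, mouse 3 by the least. Its log2 fold change was 0.25 (SE 0.12, 95% interval -0.03 to 0.54; edgeR adjusted p = 0.233).

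Pgk1 (chrX:106187100-106203699), which makes the first ATP of the pathway, overlapped at 191 to 201 CPM in the control and 191 to 237 CPM in the aPU.1KO mice (log2 fold change 0.10, 95% interval -0.13 to 0.34). The other enzymes of this stretch, which were not chosen for the set, lay on the same side of 0: Tpi1 at 0.06, Gapdh at 0.27 and Pgam1 at 0.17, none with an unadjusted p under 0.05. Tpi1 interconverts the triose phosphates, Gapdh makes NADH and Pgam1 moves the phosphate before the enolase step.

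Eno1 (chr4:150236721-150248879), the enolase that makes phosphoenolpyruvate, read 649, 635 and 681 CPM in the control mice and 768, 704 and 699.7 CPM in the aPU.1KO mice. The groups did not overlap in CPM, but the gap between control mouse 3 and knockout mouse 3 was small. The difference on the log2 scale was 0.14 (SE 0.09, 95% interval -0.07 to 0.36; edgeR adjusted p = 0.354). The neuronal enolase Eno2 was lower at -1.56 (SE 0.44; edgeR adjusted p = 0.102; DESeq2 adjusted p = 0.0216; range over alternatives, covariate aside, 0.0216 to 0.399) but supplied only 0.359% ± 0.101 (SD, n = 3) of the length-scaled enolase counts in the control mice. Eno1 has a near-identical copy, Eno1b, 99.5% identical over 1736 bases, to which 6 counts were assigned in all 6 libraries together, against 124295 for Eno1.

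Pkm (chr9:59656368-59679375), which makes pyruvate and the second ATP, was the member nearest to 0. It read 507, 428 and 509.65 CPM in the control mice and 522, 504 and 407 CPM in the aPU.1KO mice. The lowest value of all was in a knockout and the second lowest in a control. The log2 fold change was -0.01 (95% interval -0.32 to 0.30), and its sign changed with the mouse left out. Counts per gene do not separate the M1 and M2 splice forms of Pkm. Pklr, the liver and red cell pyruvate kinase, was too low to test.

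Ldha (chr7:46841475-46855627) ends the anaerobic branch, with lactate as product. Its promoter window 1 (chr7:46845554-46845853, plus strand, RefSeq on GRCm38.p6) is printed because it was the only one of the 17 windows of the 10 enzymes that held the E-box CACGTG, which 7.15% of all windows held. Capitals mark the same motifs as above, and the E-box contains ACGTG on both strands.
Ldha window 1: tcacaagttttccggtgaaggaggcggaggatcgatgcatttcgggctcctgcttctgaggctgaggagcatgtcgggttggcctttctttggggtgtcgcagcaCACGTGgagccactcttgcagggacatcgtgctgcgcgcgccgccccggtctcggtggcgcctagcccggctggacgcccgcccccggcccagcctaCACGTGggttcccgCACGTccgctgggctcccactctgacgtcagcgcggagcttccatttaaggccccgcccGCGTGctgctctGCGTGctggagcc
Ldha read 813, 799 and 861 CPM in the control mice and 1036, 1189 and 877 CPM in the aPU.1KO mice. In CPM, all knockouts were above all controls, although mouse 3 exceeded the highest control only slightly. This gave a log2 fold change of 0.33 (SE 0.13, 95% interval 0.01 to 0.64; edgeR adjusted p = 0.181; DESeq2 adjusted p = 0.124). It was between 0.21 and 0.43 when 1 mouse was left out and 0.25 (SE 0.28) with the macrophage score as a covariate. Genes induced by tissue dissociation, as a list of 12, summed to 5601, 8479 and 3018 CPM in aPU.1KO mice 1, 2 and 3. This was the same order as Ldha in these mice. In the control mice they summed to 4017, 4596 and 3657 CPM, the reverse of the order of Ldha. The adipocyte markers also had the order of Ldha in the aPU.1KO mice (62396, 66535 and 56101 CPM) but not in the control mice (43706, 50651 and 44766 CPM). The part of either list in the Ldha values was not tested. Ldhb, the heart-type subunit, stood at 0.12 and Ldhd, which acts on D-lactate, at 0.34 (edgeR adjusted p = 0.157), and Ldha supplied 86.6% ± 2.12 of the length-scaled Ldha and Ldhb counts in the control and 88.04% ± 1.86 in the aPU.1KO mice (SD, n = 3 each; exact permutation p = 0.5).

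**Figure D4:**
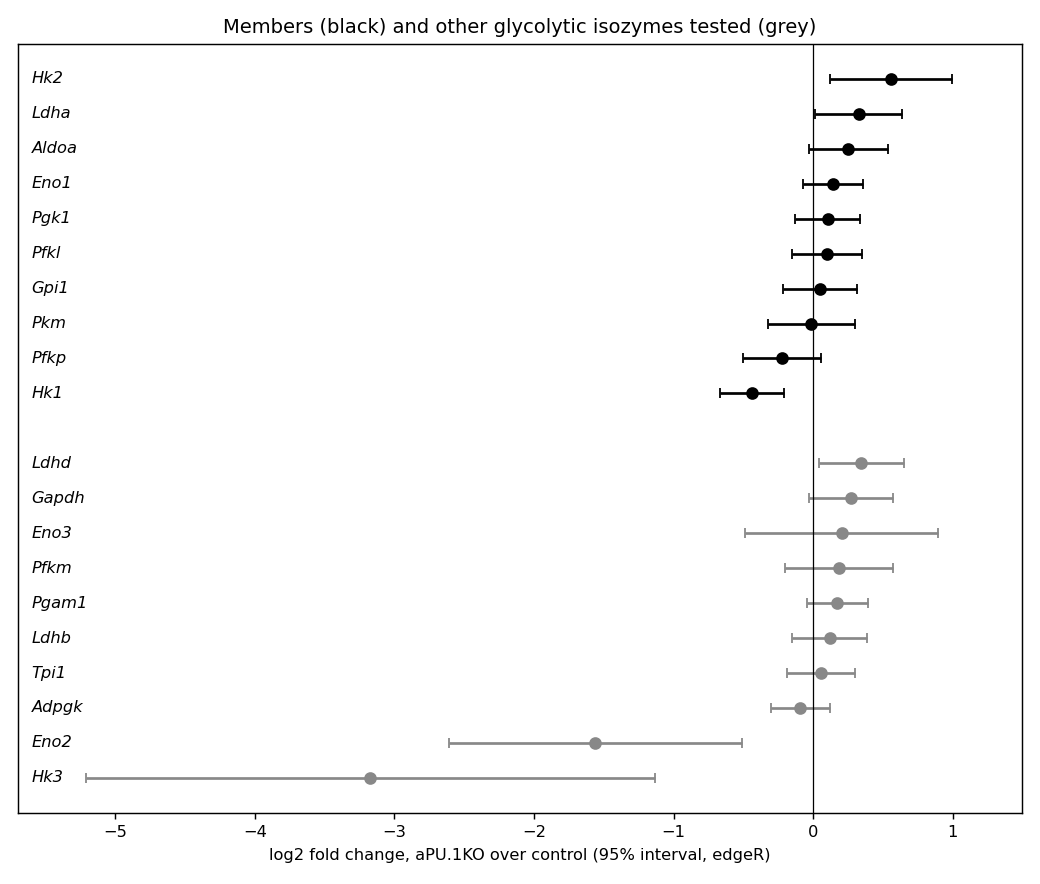
Points give the log2 fold change (aPU.1KO over control, edgeR) of each enzyme of the set and of 10 tested isozymes outside it, and lines give 95% intervals. Among the 10 enzymes the intervals of Hk1 (-0.67 to -0.21), Hk2 (0.12 to 0.99) and Ldha (0.01 to 0.64) exclude 0 before adjustment for 13925 genes.

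Variation among the mice was not spread evenly over the 10 enzymes. Hk2 had the largest coefficient of variation in both groups, 21.6% in the control and 15.8% in the aPU.1KO mice, while Aldoa had the smallest in the controls, 2.25%. Aldoa, Pgk1, Ldha and Eno1 each varied by under 4% among the controls and by 10.9%, 11.0%, 15.1% and 5.30% among the knockouts. Knockout mouse 3 was lowest of its group for 7 of the 10 (Gpi1, Pfkl, Aldoa, Pgk1, Eno1, Pkm and Ldha) and highest for the other 3 (Hk1, Hk2 and Pfkp). Control mouse 2 was lowest of its group for 8 of the 10, all but Hk2 and Aldoa, for which it was highest. Averaged as absolute differences of centred log2 CPM over the 6 libraries, the profiles of Pfkl and Pgk1 were the closest pair (0.0374) and those of Hk1 and Hk2 the farthest apart (0.501).

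Levels between the enzymes were compared in CPM per kilobase of the longest coding transcript. The control means ran from Aldoa at 870, Ldha at 454, Eno1 at 323, Pkm at 198 and Pgk1 at 108 to Gpi1 at 70.6, Pfkl at 35.7, Hk2 at 32.5, Pfkp at 25.6 and Hk1 at 7.49 CPM per kilobase. The ranges of neighbours in this order did not overlap in the control mice, except those of Pfkl and Hk2, which change places when the length of all exons is used. The enzymes of the lower, triose part of the pathway were thus above those of the upper part that use ATP, in every control mouse. In the aPU.1KO mice Hk2 stood at 39.3, 50.5 and 53.8 CPM per kilobase and Pfkl at 38.1, 42.6 and 34.0 CPM per kilobase, so that these again overlapped. By control level per length, Aldoa was at percentile 99.6 and Hk1 at percentile 54.5 of the genes tested.

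Genes that feed, steer and drain the pathway were taken as lists, whose counts can be set beside the 11.9% of all genes above and the 13.7% below at an unadjusted p of 0.05. For DESeq2 the shares of all genes called were 3.97% higher and 8.46% lower. No gene of the 3 lists that follow passed the adjusted threshold in the main edgeR fit or in limma-voom with all 6 mice. Of 19 transporters and regulators tested, the unadjusted threshold called 6 upwards and 1 downwards, with a median log2 fold change of 0.10, and DESeq2 called 3 higher and 1 lower. Among these, the insulin-responsive glucose carrier Slc2a4 was at 0.66 (edgeR adjusted p = 0.105), the pyruvate dehydrogenase kinase Pdk2 at 0.59 (0.0724), Pfkfb1, which makes the phosphofructokinase activator fructose 2,6-bisphosphate, at 0.76 (0.0796), and the lactate exporter Slc16a3 at -1.80 (0.107). Pfkfb4, of the same family as Pfkfb1, was at -0.41 (0.386). With the macrophage score as covariate, Pdk2 was at 0.29, Pfkfb1 at 0.23 and Slc16a3 at 0.41.

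Of the 11 genes that carry pyruvate into mitochondria and the citrate cycle, the unadjusted threshold called 9 upwards and 0 downwards in edgeR, with a median of 0.44. DESeq2 called 3 of the 11, all higher, where it called 3.97% of all genes higher. Calls of single genes among Pdk2, Pfkfb1, Slc16a3 and Tkt appeared in edgeR without control mouse 2 (adjusted p of 0.0248, 0.0498, 0.01 and 0.0488). That fit called 1193 of 14306 genes, against 33 in the main fit, so such calls were not particular to these genes. Mpc1, a subunit of the mitochondrial pyruvate carrier, was at 0.82 (SE 0.19; edgeR adjusted p = 0.0796), and the pyruvate dehydrogenase subunits Pdha1 and Pdhb were at 0.66 and 0.63. The dehydrogenase phosphatase Pdp1 was the lowest at -0.27. With the macrophage score as covariate, Mpc1 was at 0.56 and Pdhb at 0.37. There were 0.233, 0.254 and 0.232 Mpc1 counts per Ldha count in the control mice and 0.365, 0.351 and 0.280 in the aPU.1KO mice, a ratio picked with the values in view and given without a test. Adipocyte markers moved the same way as this list, with 11 of 12 above 0, a median of 0.43 and 43706 to 50651 CPM in the control against 56101 to 66535 CPM in the aPU.1KO mice, and their part in it was not tested. In the pentose phosphate pathway, which branches off after hexokinase and makes NADPH, 1 of 9 genes was called at the unadjusted threshold: the transketolase Tkt at 0.88 (edgeR adjusted p = 0.0753), which DESeq2 also called and which was at 0.58 with the covariate. H6pd, the enzyme of the endoplasmic reticulum, was at 0.30 (0.201), while G6pdx, the entry enzyme, stood at -0.01.

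**Figure D5:**
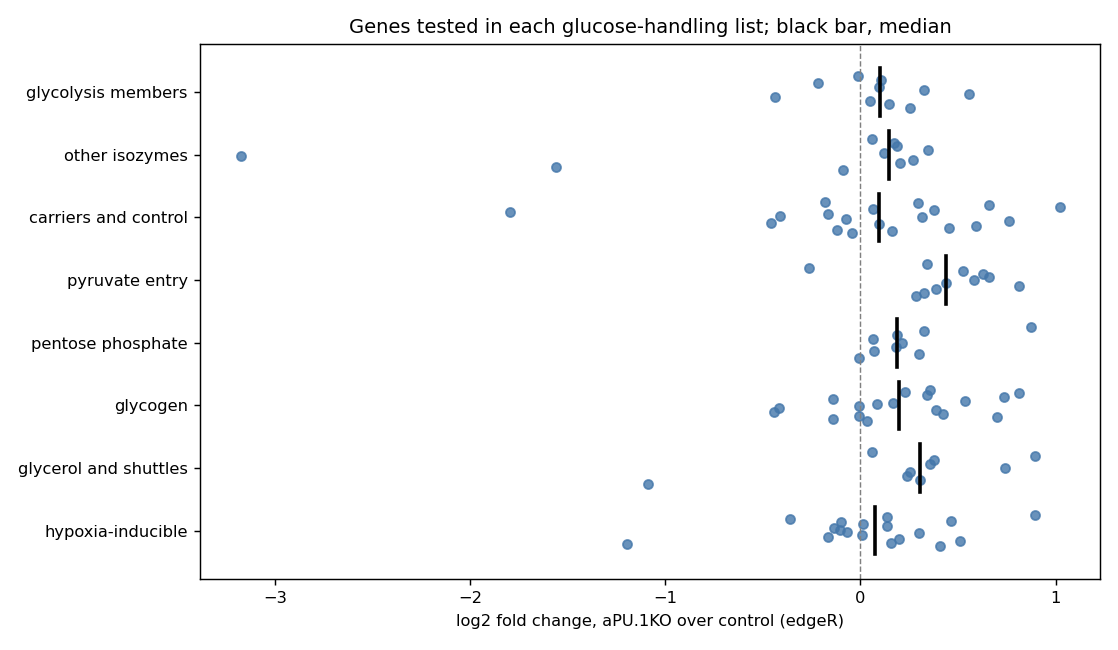
Each point is the log2 fold change (aPU.1KO over control, edgeR) of 1 tested gene in the glycolysis set and the related lists, and bars mark the medians of the genes drawn. The median of the 10 enzymes is 0.10 and that of the pyruvate entry genes 0.44.

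The genes whose pattern over the 6 libraries was most like the average of the 10 enzymes were found among 5251 genes with a mean of at least 5 log2 CPM. The nearest were Snx4, a sorting nexin, with a mean absolute difference of 0.00634 on the log2 scale, Derl2, of the endoplasmic reticulum, with 0.00955, and Slc33a1, an acetyl-CoA carrier, with 0.0137. Their own log2 fold changes were 0.08, 0.09 and 0.10. Choosing genes by their pattern over the same 6 libraries sets these values near those of the enzymes, so they are no separate result.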

How the data were processed

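Epididymal adipocyte RNA of 6 mice was sequenced. Per the paper's methods, the authors ran Salmon with its validateMappings option and added transcripts up to genes, and the deposited values are estimated counts, which were whole numbers. Per the submitters' processing notes the build was GRCm38. The Salmon version, annotation release and strand setting are not given in the sources used here. Symbols were found in GENCODE M21 (GRCm38), the source of coordinates and lengths, for 35031 of 35122 genes, and the rest held 0.0367% of counts. Depth was 20550252 to 69283842 counts per library. Libraries of 1 group differed by far more than sampling noise (chi-square per degree of freedom at least 20.4).

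The members and lists were chosen with earlier results of these data known. Some genes of the pathway are not reported here. Columns were matched to mice by the number in their titles, and mice carry numbers within a group in label order. The main test was edgeR 4.0.16 in R 4.3.3: low counts removed with filterByExpr, TMM factors, glmQLFit at default settings, glmQLFTest, and Benjamini-Hochberg adjustment over 13925 genes. Fold changes put aPU.1KO over control. CPM used TMM-scaled library sizes, and the macrophage score a prior count of 2. Shares were compared with exact permutation tests (scipy 1.17.1, Python 3.11.15), and plots used matplotlib 3.10.9. Named beyond the set were isozymes of its steps, the 2 genes of lowest p in each direction per pathway list, and the 5 nearest profiles, of which 3 are given. Slc2a4, Pdha1, Pygl, Gbe1, Pitrm1 and the ratios of counts were picked after their values were seen. Similar transcripts were sought with BLAST 2.17.0, and motifs by exact match in RefSeq promoter windows.

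On simulated counts of 13925 genes, edgeR recovered 65 of 100 genes changed by 1 on the log2 scale and 97 of 100 changed by 2, with 8 false calls. Alternatives were RLE and upper quartile scaling, no filter, at least 10 counts in every library, DESeq2 1.42.0, limma-voom (limma 3.58.1), the options legacy = FALSE and robust = TRUE, the macrophage score as covariate, control library 1 thinned to 22770714 counts, each mouse left out, and other gene lengths for shares, of which the longest coding transcript was added after the data were seen.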

Additional observations from a re-analysis of the deposited data

How the results depend on the processing

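The direction of Hk1, Hk2, Pfkl, Aldoa, Pgk1, Eno1 and Ldha was the same under every alternative run, and the call on each of the 10 enzymes changed only for Hk1 (called by DESeq2) and Hk2 (called without control mouse 2), so that the number of enzymes called was 1 with DESeq2 and 0 to 1 over the fits that left out a mouse. Over all genes, 33 of 13925 were called. The number was 146 with no filter and 5 with at least 10 counts in every library. DESeq2, run without the filter of the main fit, called 1833, with 21526 genes given a p-value. Of 13923 genes of the main fit it called 1731. The number was 0 with the macrophage score as covariate (435 at an unadjusted p under 0.05). When a mouse was left out it ran from 0 (without control mouse 1, with 1718 unadjusted) to 1193 (without control mouse 2). With the macrophage score as covariate the log2 fold change changed sign for Pfkp (0.0606), Pkm (0.20), Hk3 (0.63), Ldhb (-0.22), Pfkm (-0.22), Eno3 (-0.29), Slc16a3 (0.41), Pfkfb4 (0.0367), G6pdx (0.21), Gys2 (0.67) and Bnip3 (-0.0021); the cause was not tested. When a mouse was left out, signs changed for Pkm (-0.101 to 0.0937), Gpi1 (-0.0553 to 0.109), Tpi1 (-0.0104 to 0.108), Eno3 (-0.19 to 0.42) and G6pdx (-0.12 to 0.12), and for the difference in the Pfkl share (-0.852 to 4.42 percentage points) and in the Eno1 share (-0.182 to 0.745 points). The scalings moved the median of all genes by under 0.1. The paper describes its control mice as littermates of the knockouts, but the labels name no litter. No paired analysis was possible because the labels give each mouse its own number and none shared between the groups. With 3 mice a group, the 95% intervals of the enzymes were wide (for Hk2, 0.12 to 0.99), which limits what could be detected.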

Other observations

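Other routes of glucose 6-phosphate and of the triose phosphates were measured in the same libraries. Over all genes, 11.9% passed an unadjusted p of 0.05 upwards and 13.7% downwards in edgeR, and DESeq2 called 3.97% upwards and 8.46% downwards. No gene of the lists named here passed the adjusted threshold in the main edgeR fit or in limma-voom with all 6 mice. Of the 18 genes of glycogen synthesis and breakdown, 7 passed an unadjusted p of 0.05 upwards and 0 downwards in edgeR, with a median log2 fold change of 0.20, and DESeq2 called 4 of them. They included Pygl, the liver-type glycogen phosphorylase, at 0.81, Gbe1, the branching enzyme, at 0.70, Pgm1, which links glucose 1-phosphate and glucose 6-phosphate, at 0.39, and Ugp2, which makes UDP-glucose, at 0.36 (edgeR adjusted p of 0.107, 0.0971, 0.0919 and 0.0909). Gys2, the liver-type glycogen synthase, was at -0.44 and Pgm2 at -0.42. Adipocyte markers also moved upwards, with 11 of 12 above 0 and a median of 0.43, and their part in the glycogen list was not tested. Of the 9 genes of glycerol 3-phosphate supply and the NADH shuttles, the same threshold called 5 upwards and 1 downwards, and DESeq2 called 2 upwards and 1 downwards. Pck1, whose product makes phosphoenolpyruvate for glyceroneogenesis, was at 0.89 (edgeR adjusted p = 0.0856; DESeq2 0.00196), the mitochondrial glycerol 3-phosphate dehydrogenase Gpd2 at 0.74 (0.114; DESeq2 0.0321) and the cytosolic aspartate aminotransferase Got1 at -1.09 (0.0786; DESeq2 0.00198). With the macrophage score as covariate these were at 0.37, 0.02 and -0.45, and Pgm1 and Ugp2 at 0.16 and 0.19.

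Of 18 tested targets and parts of the hypoxia response, a pathway that raises many glycolysis genes, 2 passed an unadjusted p of 0.05 upwards and 2 downwards in edgeR, with a median of 0.07, and DESeq2 called 2 upwards and 1 downwards, beside the shares of all genes of 11.9%, 13.7%, 3.97% and 8.46% in the same order. The unadjusted counts were thus near those of all genes. Vegfa, a growth factor for blood vessels, was at 0.90 (edgeR adjusted p = 0.0766; DESeq2 0.000513) and Bnip3, a mitophagy receptor, at 0.51 (0.122; DESeq2 0.0486). P4ha1, a collagen prolyl hydroxylase subunit, was at -0.36 (0.105; DESeq2 0.0448) and Ankrd37 at -1.19 (0.176; DESeq2 0.176). With the macrophage score as covariate Vegfa was at 0.23, Bnip3 at -0.0021, P4ha1 at -0.20 and Ankrd37 at -1.83.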
